A study of Mus musculus with 6 samples.

Results

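The smooth muscle contractile genes of the mouse uterus were followed as 37 named members out of the 18193 genes that the array measured. They are the proteins of the contractile apparatus of the myometrium, the muscle wall of the uterus, with the channels and receptors that trigger it. Where several probe sets were annotated to 1 gene alone, the brightest of them on average over the 6 arrays, on the log2 scale, stood for the gene, and all 37 members were measured. The samples were uterine horns of C57BL6J mice taken 2 weeks after a surgery of a kind that the labels do not name, nor do they give the age of the mice. The 3 SF1 arrays held RNA of Pgrcre/+ SF1LsL/+ uteri, in which Cre made from the progesterone receptor (Pgr) locus is meant to switch on a transgene for SF1, a nuclear receptor of steroid-producing cells. The 3 control arrays held RNA of SF1LsL/+ uteri, which carry the same transgene without Cre. Each array held a pool of 2 uteri, and the Cre allele, the Pgr dose and SF1 differed together between the groups. Pgr is made in the epithelium, the stroma and the muscle of the uterus, so the Cre driver is not specific to muscle.

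In smooth muscle, calcium that enters through voltage-gated channels or leaves internal stores binds calmodulin and activates myosin light chain kinase. Phosphorylated myosin then pulls on actin filaments that are anchored in dense bodies and membrane plaques, and a light chain phosphatase ends the contraction. Serum response factor and its partner myocardin drive many of these genes through a DNA element called the CArG box. In the uterus, oxytocin receptors and gap junctions of connexin 43 are best known for their part in labour, while large-conductance potassium channels hold the muscle at rest.

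Median array intensities lay between 149.9 and 159.6 in SF1 and between 159 and 162 in control. The beta-actin 3′ to 5′ signal ratio, which grows as RNA degrades, was 2.19 ± 0.123 in SF1 and 2.51 ± 0.107 in control (SD, n = 3 each; two-sided exact permutation p = 0.1, and no smaller one is possible with 3 against 3). The 2 groups did not overlap in that ratio, and its part in the results below was not tested. Nr5a1, the gene of SF1, read 151 ± 0.131 intensity units in SF1 and 152 ± 17.4 in control (SD, n = 3 each), but whether its probe set lies in the transgene is not known here, so this value checks nothing about the labels. Pgr read 1893 ± 158 intensity units in SF1 and 4797 ± 89 in control, a log2 difference of -1.34 ± 0.085 (SE; limma adjusted p = 3.23e-05).

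No difference between SF1 and control uteri was called for most contractile genes, filament proteins included. The same held for most genes of the array, 15195 of 18193. Of the 7 members of excitation and calcium handling, 5 were called higher in SF1. All members were chosen with earlier results of these data known. In a wider list of 25 calcium and excitation genes, given below, 5 were called higher and 5 lower (median log2 difference -0.12). Of 37 members, 6 were called higher and 2 lower at a limma adjusted p under 0.05, and 29 were not called. Of all 18193 genes, 8.37% were called higher, 8.11% lower and 16.5% in either direction, while 16.2% of the members were called higher and 5.41% lower. In bulk tissue such as this, fewer cells of a type and less RNA per cell cannot be told apart. Kcnma1, Itga8, Oxtr, Casq2, Kcnmb1 and Gja1 were the members that rose, and Pgm5 and Synpo2 those that fell. The median log2 difference was 0.054 over the members and -0.054 over all genes. For 19 members the SF1 and control arrays did not overlap, 12 of them higher and 7 lower in SF1. That held for 39.9% of all genes, 16.2% higher and 23.7% lower. Of all calls in the series, 50.8% were higher, and 62.8% after median centring of the arrays.

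**Figure D1:**
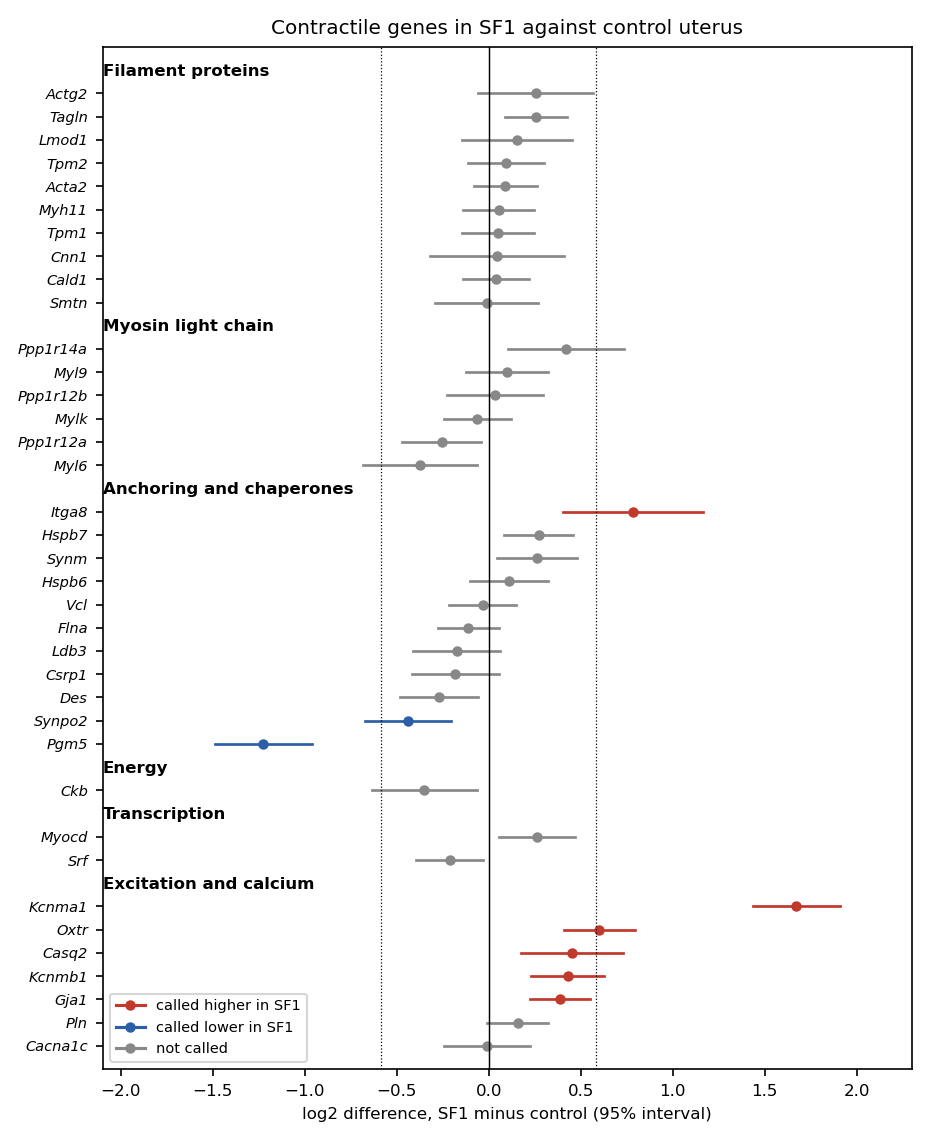
Log2 difference (SF1 minus control, horizontal axis) of each of the 37 members with its 95% interval, grouped by role, from 3 arrays per group. The dotted lines mark a 1.5-fold difference either way. All 10 filament genes lie inside them, and 5 of the 7 members of excitation and calcium handling are called higher.

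Of the 29 members not called, 26 had a 95% interval that lay wholly within a 1.5-fold difference either way, so a larger difference was outside the interval for these genes. Of the 15195 genes not called in the whole series, 14022 had such an interval. Counting called members too, it was 27 of 37, against 80.9% of all genes. The other 3 uncalled members were Myl6, Ppp1r14a and Ckb, whose intervals reached past it. Of the uncalled members, 10 had an interval that left out 0 before adjustment for the number of genes tested, and these are given with their values below.

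None of the 10 genes of the thick and thin filaments was called. With 16.5% of all genes called in either direction, 0 of 10 says little on its own. Acta2, the smooth muscle alpha-actin, read 11611, 12235 and 12487 intensity units in SF1 uteri, against 11100.1, 11216 and 11834 in control uteri. The groups overlapped, and the log2 difference was 0.089 (95% interval -0.083 to 0.26, limma adjusted p = 0.459). Myh11, the smooth muscle myosin heavy chain, read 4285, 4184 and 4586 intensity units in SF1 uteri, against 3868, 4294 and 4427 in control uteri. The lowest control array lay under all SF1 arrays and the others were interleaved, with a difference of 0.054 and an interval from -0.14 to 0.25. Actg2, the gamma-actin of enteric and uterine muscle, read 2061, 2508 and 1913 intensity units in SF1 uteri, against 1589.7, 1702 and 2137 in control uteri. Here the highest SF1 array was replicate 2 and control replicate 3 lay inside the SF1 range, for a difference of 0.26 and an interval from -0.057 to 0.57.

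Tagln (transgelin, SM22), an actin-bundling protein, came closest to a call among the filament genes. It read 8952, 9679 and 9233 intensity units in SF1 uteri, against 7575, 7893 and 7859 in control uteri. Every SF1 array was above every control array, with a log2 difference of 0.26 ± 0.074 (SE) and a limma adjusted p of 0.0547. This gene passed the threshold in 5 of 14 alternative settings, among them median centring of the arrays. Cnn1, calponin, which restrains myosin, read 1742, 2242 and 1767 intensity units in SF1 uteri, against 1998, 1457 and 2171 in control uteri. The control arrays spread over most of the range of all 6, and the difference was 0.042 with an interval from -0.32 to 0.41.

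Smtn (smoothelin), an actin-binding marker of contractile muscle, read 521, 492 and 536 intensity units in SF1 uteri, against 451, 493 and 634 in control uteri. Its SF1 arrays lay inside the control range. Lmod1 (leiomodin), which seeds actin filaments, read 518, 477 and 584 intensity units in SF1 uteri, against 402, 566 and 458 in control uteri. Its groups overlapped too, with differences of -0.013 for Smtn and 0.15 for Lmod1. The tropomyosins Tpm1 (0.049) and Tpm2 (0.093) line the actin filament, and caldesmon, Cald1 (0.039), blocks myosin from actin. Their adjusted p-values lay between 0.521 and 0.768. Other probe sets of these genes, none of them called, ran from -0.25 to 0.13 for Tpm1, -0.26 to 0.42 for Tpm2 and -0.30 to 0.022 for Cald1. The probe sets of Acta2 and Cald1, like those of Srf and Casq2, carry the suffix that Affymetrix gives to probe sets matching several transcripts, so their signal may include relatives.

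**Figure D2:**
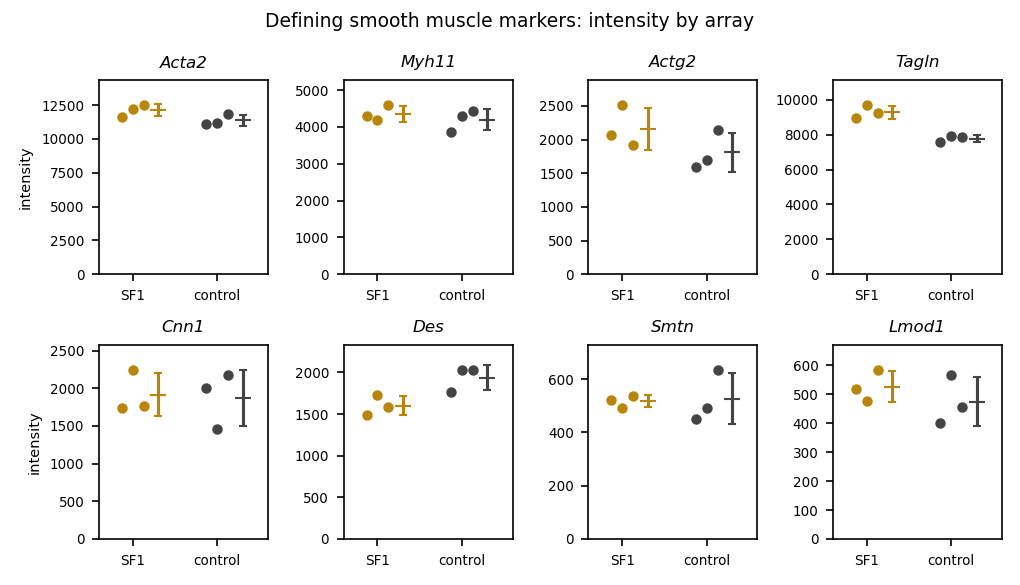
Probe set intensity (linear scale, vertical axis) of the 8 defining smooth muscle markers in each of the 3 SF1 and 3 control arrays, as points, with the mean and SD at the side. Tagln is higher and Des lower in every SF1 array than in every control array, and the other 6 overlap.

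Myosin light chains and the enzymes that switch them were not called either, at 0 of 6, against 16.5% of all genes. So small a count says little on its own. Mylk, the light chain kinase that starts contraction, read 7326, 7047 and 7778 intensity units in SF1 uteri, against 7498, 8122 and 7513 in control uteri, and the difference of -0.063 had an interval from -0.24 to 0.12. Ppp1r12a (MYPT1), the subunit that targets the light chain phosphatase to myosin, read 2767, 2723 and 2994 intensity units in SF1 uteri, against 3352, 3744 and 3075 in control uteri. All SF1 arrays lay under all control arrays, with a log2 difference of -0.26 (limma adjusted p = 0.108). Each of its 4 probe sets read lower in SF1, between -0.40 and -0.26, and 1 of them was called, at -0.40 (adjusted p = 0.0238).

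Its relative Ppp1r12b (MYPT2) read 2491, 2562 and 2846 intensity units in SF1 uteri, against 2305, 3018 and 2429 in control uteri, and the SF1 arrays lay within the control range (0.034). Ppp1r14a (CPI-17), a phosphatase inhibitor that keeps muscle contracted, read 652, 709.5 and 599.5 intensity units in SF1 uteri, against 384, 531 and 555 in control uteri. It was higher in every SF1 array, by 0.42 (95% interval 0.10 to 0.74, limma adjusted p = 0.0815). The 2 light chains differed in sign without a call. Myl6, the essential chain, read 1289.8, 1319.9 and 1761 intensity units in SF1 uteri, against 1888, 2079 and 1677 in control uteri (-0.37, adjusted p = 0.103). SF1 replicate 3 lay within the control range, and Myl6 was called lower without that array (adjusted p = 0.0281). Myl9, the regulatory chain that the kinase phosphorylates, had a difference of 0.10 with an interval from -0.12 to 0.32.

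Among the 11 genes that anchor filaments, join them to the matrix or protect them, 1 rose, 2 fell and 8 were not called. Pgm5, a phosphoglucomutase relative found at muscle adhesion sites, showed the largest fall among the members. It read 898, 904 and 1158 intensity units in SF1 uteri, against 2137, 2480.2 and 2335 in control uteri. The highest SF1 array was well under the lowest control array, and the log2 difference was -1.23 ± 0.12 (SE; limma adjusted p = 0.00023). Pgm5 has 1 probe set on the array, so no other one bears on the value.

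Synpo2 (myopodin), an actin-bundling protein of Z-discs and dense bodies, fell as well. It read 1381, 1346 and 1552 intensity units in SF1 uteri, against 1955, 2143 and 1728 in control uteri. The groups were apart, with a difference of -0.44 ± 0.10 (adjusted p = 0.0239), but the call was lost without SF1 replicate 1 or 2 or control replicate 1 or 2 (highest adjusted p = 0.0838). Of its other 3 probe sets, 2 were called lower, at -0.71 and -0.63 on the log2 scale, and 1 gave -0.014.

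Itga8, an integrin alpha chain that binds matrix proteins of muscle, rose. It read 623, 526 and 414 intensity units in SF1 uteri, against 341, 237 and 308 in control uteri. The SF1 arrays were all higher but spread more than SF1 arrays did for any other member, with an SD of 0.287 on the log2 scale. The log2 difference was 0.78 ± 0.17 (adjusted p = 0.0162), and the call was lost when SF1 replicate 1 or 2 was left out (highest adjusted p = 0.0573). Its second probe set gave 0.25 (adjusted p = 0.0802), and the mean of both 0.52.

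The intermediate filament genes pointed in different directions. Des (desmin), the main intermediate filament of muscle, read 1493, 1729 and 1582 intensity units in SF1 uteri, against 1759.9, 2027 and 2028 in control uteri. All SF1 arrays lay below all control arrays, but Des was not called (-0.27, adjusted p = 0.0906), and its second probe set gave -0.32. Synm (synemin), which links desmin to the membrane, read 1373, 1368 and 1563 intensity units in SF1 uteri, against 1269, 1239 and 1074 in control uteri, above control in every SF1 array (0.26, adjusted p = 0.109). The second Synm probe set was called higher, at 0.38 (adjusted p = 0.0121).

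The small heat shock gene Hspb7 read 325, 350.1 and 348 intensity units in SF1 uteri, against 259, 294 and 288 in control uteri. It lay above control in every SF1 array without a call (0.27, adjusted p = 0.0617). The other Hspb7 probe sets gave 0.12 and -0.073, and the mean of all 3 was 0.10. Hspb6, the Hsp20 that takes part in relaxation, overlapped between groups at 0.11. The remaining anchoring genes were not called, with Vcl (vinculin) at -0.035, Flna (filamin A) at -0.11, Ldb3, a PDZ-LIM protein of muscle, at -0.17, and Csrp1, a LIM protein bound to actin, at -0.18. Ckb, the brain-type creatine kinase that buffers ATP, read 1888, 2303 and 2699.6 intensity units in SF1 uteri, against 2815, 3035 and 2860.2 in control uteri. It lay under control in every SF1 array (-0.35, adjusted p = 0.101), and was called lower without SF1 replicate 3 (adjusted p = 0.0382).

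The 2 transcription factors behind the program, Myocd and Srf, were not called, and their array values lay apart in opposite directions. Myocd (myocardin), the muscle-specific partner, read 266, 286 and 285 intensity units in SF1 uteri, against 253, 207 and 233 in control uteri, a log2 difference of 0.26 (95% interval 0.054 to 0.47, limma adjusted p = 0.0938). Srf, the factor that binds the CArG box, read 1181, 1264 and 1312 intensity units in SF1 uteri, against 1402, 1526 and 1432 in control uteri, a difference of -0.21 (95% interval -0.40 to -0.031, adjusted p = 0.115). The second probe sets gave -0.11 for Myocd, of opposite sign to the first, and -0.078 for Srf.

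CArG boxes were looked for on both strands in the 300 bases around each annotated gene start, 250 before and 50 after, in the RefSeq promoter table of GRCm38.p6. A box was counted only where CC, 6 letters of A or T, and GG matched exactly. Stretches with another base in that core, as in the Acta2 promoter, were not counted. The table held 41 promoters of 33 members, that is of all but Actg2, Myh11, Myocd and Tagln. Of these, 6, from the 5 genes Ldb3, Myl6, Myl9, Srf and Vcl, held such an exact CArG box, as did 1.63% of all 32851 promoters. The promoters of Ldb3 overlap and hold the same box, so that box counts more than once among the 6. All 8 called members had a promoter in the table, and 0 of the 8 held an exact CArG box in this window. Among all 33 members with a promoter it was 5, so 0 of 8 says little on its own. The letters AAGGTCA, the core that SF1 binds, stood on neither strand of any of the 41 member promoters, against 4.72% of all promoters. The letters TATAAA stood in 6 of the 41 on either strand, against 13.6% of all promoters, and no matches of different motifs overlapped. A match describes these letters and is not a bound site. The promoters of Srf, with its 2 boxes, and of Kcnma1 and Pgm5, the members with the largest rise and fall, are given 5′ to 3′ on the strand of the gene, with CArG boxes in capitals.
Srf, chr17:46556113-46556412, minus strand: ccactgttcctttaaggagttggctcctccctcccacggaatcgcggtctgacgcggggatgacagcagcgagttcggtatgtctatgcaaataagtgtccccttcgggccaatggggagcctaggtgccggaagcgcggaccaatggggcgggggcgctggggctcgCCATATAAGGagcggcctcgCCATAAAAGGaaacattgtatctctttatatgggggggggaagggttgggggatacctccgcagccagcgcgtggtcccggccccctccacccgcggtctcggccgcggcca
Kcnma1, chr14:24004156-24004455, minus strand: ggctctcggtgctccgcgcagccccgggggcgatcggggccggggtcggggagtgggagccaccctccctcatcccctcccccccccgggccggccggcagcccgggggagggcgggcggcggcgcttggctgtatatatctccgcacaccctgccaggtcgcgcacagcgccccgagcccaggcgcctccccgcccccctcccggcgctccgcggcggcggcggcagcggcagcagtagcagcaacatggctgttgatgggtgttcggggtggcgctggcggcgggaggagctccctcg
Pgm5, chr19:24861793-24862092, minus strand: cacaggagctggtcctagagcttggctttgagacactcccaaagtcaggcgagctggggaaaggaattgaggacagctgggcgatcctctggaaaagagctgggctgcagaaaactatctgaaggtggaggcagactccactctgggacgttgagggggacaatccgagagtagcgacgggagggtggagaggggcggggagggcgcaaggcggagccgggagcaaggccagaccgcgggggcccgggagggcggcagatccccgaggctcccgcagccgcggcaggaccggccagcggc
The boxes of the other 4 genes, with 10 bases on each side, are set beside them to show how the A and T core varies.
Myl9, chr2:156775293-156775322, plus strand: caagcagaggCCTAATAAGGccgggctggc
Myl6, chr10:128493040-128493069, minus strand: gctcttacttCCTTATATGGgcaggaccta
Vcl, chr14:20929161-20929190, plus strand: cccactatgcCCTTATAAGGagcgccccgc
Ldb3, chr14:34588697-34588726, minus strand: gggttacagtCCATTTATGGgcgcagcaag
None of these 5 genes was called, against 16.5% of all genes, so 0 of 5 says little on its own. Their log2 differences were 0.10 for Myl9, -0.37 for Myl6, -0.035 for Vcl, -0.17 for Ldb3 and -0.21 for Srf.

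The members of excitation and calcium handling held 5 of the 6 rises, with 0 lower and 2 not called. Outside this role, 1 of 30 members was called higher and 2 lower. The difference between these roles was not tested. Kcnma1, the pore of the large-conductance calcium-activated potassium channel, rose most of all members. It read 543, 569.7 and 694 intensity units in SF1 uteri, against 167, 182 and 183 in control uteri. Every SF1 array lay far above every control array, with a log2 difference of 1.67 ± 0.10 (SE), a fold of 3.18 and a limma adjusted p of 2.87e-05. Of its 5 probe sets, 4 rose, by between 1.29 and 1.79, while the remaining probe set gave 0.016 with an interval from -0.20 to 0.23.

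Kcnmb1, the beta subunit that makes this channel more sensitive to calcium in smooth muscle, read 199, 201 and 229 intensity units in SF1 uteri, against 158, 141 and 155 in control uteri. All SF1 arrays were above all control arrays, and the difference was 0.43 ± 0.087 (limma adjusted p = 0.0126). Its second probe set gave 0.13 (adjusted p = 0.359), and the mean of both 0.28. For both subunits the highest array was SF1 replicate 3.

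Oxtr, the oxytocin receptor that starts strong uterine contractions, read 378, 391 and 439.9 intensity units in SF1 uteri, against 253, 269 and 257 in control uteri. The groups were apart, with a difference of 0.60 ± 0.084 (limma adjusted p = 0.00208), while the second probe set gave 0.082 (adjusted p = 0.594) and the mean of both 0.34. Gja1, connexin 43, which couples muscle cells electrically, read 1867, 1853 and 1858 intensity units in SF1 uteri, against 1461, 1379 and 1418 in control uteri. Its probe set carries the suffix that Affymetrix gives to probe sets that may cross-hybridise with other transcripts. The 3 SF1 arrays differed by an SD of 0.00561 on the log2 scale, the smallest in SF1 among the members, and the difference from control was 0.39 ± 0.072 (adjusted p = 0.00849). Of its 6 probe sets, 4 rose, by between 0.38 and 0.47, among them one without that suffix (0.47, adjusted p = 0.00718). The other 2 gave -0.012 and -0.022. The one at -0.012 also lacks the suffix but is dim, at a mean of 83.3 intensity units in SF1 and 84.1 in control.

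Casq2, calsequestrin, the calcium buffer of internal stores, read 126, 168 and 149.9 intensity units in SF1 uteri, against 95.1, 96.3 and 119.9 in control uteri. Its only probe set may match several transcripts, by its suffix. The groups were narrowly apart, since SF1 replicate 1 read close to control replicate 3. The difference was 0.45 ± 0.12 (adjusted p = 0.0409), and the call was lost without any 1 of 4 arrays, namely SF1 replicate 2 or 3 or control replicate 1 or 2, and with a pseudocount of 1 (adjusted p up to 0.12). Pln, phospholamban, which slows the calcium pump of the stores, read 471, 459 and 469 intensity units in SF1 uteri, against 420.2, 428 and 403 in control uteri. Its groups did not overlap either, but the difference of 0.16 was not called (adjusted p = 0.187), and its other probe sets gave 0.24 and 0.20. Cacna1c, the L-type calcium channel pore, read 507, 527 and 589 intensity units in SF1 uteri, against 479, 578 and 583 in control uteri. The groups overlapped, with a difference of -0.012 and an interval from -0.25 to 0.22.

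**Figure D3:**
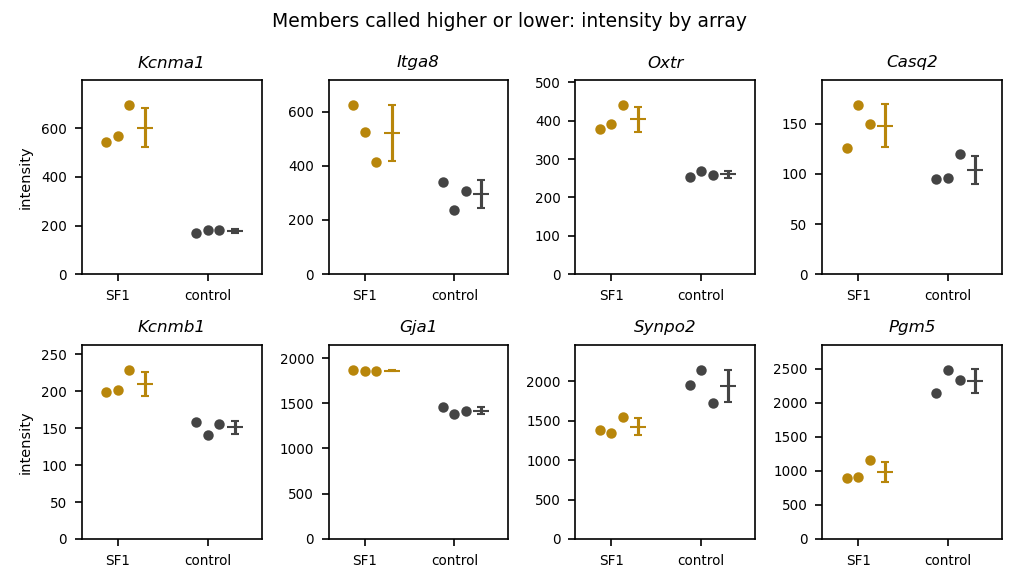
Probe set intensity (linear scale, vertical axis) of the 8 called members in each of the 3 SF1 and 3 control arrays, as points, with the mean and SD at the side. Kcnma1 and Pgm5 show the widest gaps between groups, and in Casq2, Synpo2 and Itga8 the nearest arrays of the 2 groups lie close together.

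Across the 86 probe sets of the 37 members, 13 were called higher and 5 lower, and 0 members had probe sets called in both directions. Of all 45037 tested probe sets, 14% were called in either direction. The array holds more than 1 probe set for 24 of the members. Kcnma1, Gja1 and Synpo2 had other probe sets called the same way, while Oxtr, Kcnmb1 and Itga8 rested on 1 of 2 probe sets and Pgm5 and Casq2 on their only one. Synm and Ppp1r12a were the uncalled members with another probe set called. The positions of the probe sets along the transcripts were not used here.

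**Figure D4:**
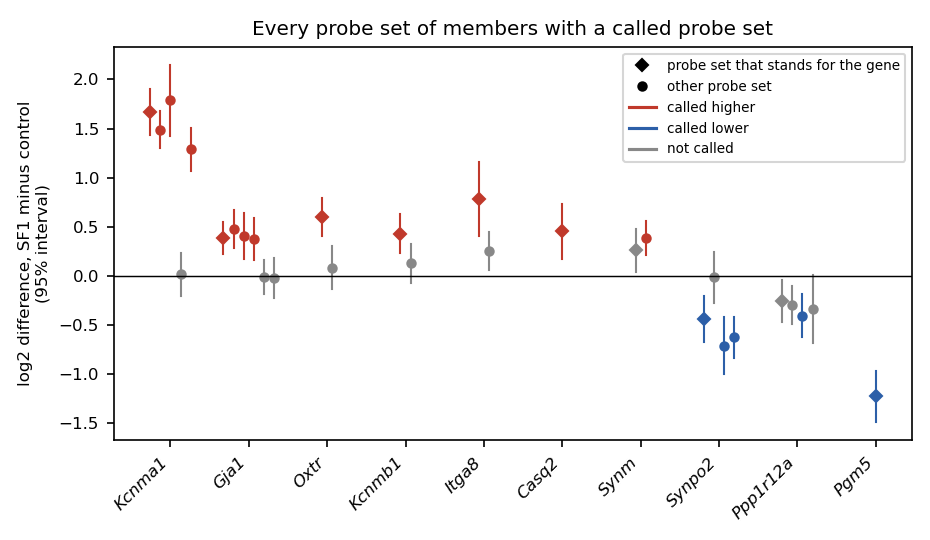
Log2 difference (SF1 minus control, vertical axis) with its 95% interval for each probe set of the 10 members that had a called probe set, with diamonds for the one that stands for the gene. In Kcnma1, Gja1 and Synpo2 several probe sets are called the same way and at least 1 lies near 0.

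Among the members the median SD between arrays on the log2 scale was 0.101 in SF1 and 0.107 in control. Within SF1, replicate 3 was the highest array for 20 of the 37 members, replicate 2 for 13 and replicate 1 for 4. In control, replicate 2 was the highest for 17, replicate 3 for 14 and replicate 1 for 6. Cnn1 spread most in control, at 0.301.

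A wider list of smooth muscle genes was compared in the same fit. Of its 141 genes, 125 had a probe set of their own here, and 12 of these were called higher, 21 lower and 92 not called. These are 9.6% and 16.8%, against 8.37% and 8.11% of all genes. Without control replicate 1, 12 of the list were called lower, and over all genes 965 were, against 1475 with all arrays. The median log2 difference of the list was -0.076. By role, 5 of 25 genes of calcium and excitation rose and 5 fell, with 19 of the 25 below 0 and a median of -0.12. Of 17 regulators 1 rose and 5 fell, and of 16 kinases and phosphatases 1 rose and 3 fell. Of 31 genes of the dense plaque and membrane 2 rose and 3 fell, of 21 filament and cytoskeleton genes 1 rose and 2 fell, of 11 receptors 1 rose and 2 fell, and of 4 gap junction genes 1 rose and 1 fell.

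Receptors for contracting hormones differed in direction. Avpr1a, the vasopressin receptor V1a, rose most in the list. It read 445, 427 and 443 intensity units in SF1 uteri, against 82.9, 81.8 and 61.6 in control uteri, a log2 difference of 2.32 ± 0.11 (SE; limma adjusted p = 6.98e-06), and its second probe set gave 2.02. Ptgfr, the receptor for prostaglandin F2-alpha, fell. It read 175, 223 and 211 intensity units in SF1 uteri, against 402, 426 and 358 in control uteri, and the difference was -0.91 (adjusted p = 0.000828). Of its other 4 probe sets, 3 were also called lower. All SF1 arrays lay outside the control range for both receptors, as they did for Oxtr.

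The 2 low-voltage, or T-type, calcium channels in the list also differed in direction. Cacna1h read 379, 338 and 393 intensity units in SF1 uteri, against 173, 180.3 and 194 in control uteri, and rose by 0.96 on the log2 scale (limma adjusted p = 0.000192), and its second probe set was also called, at 0.37. Cacna1g read 167, 159 and 213 intensity units in SF1 uteri, against 779.7, 914 and 686 in control uteri, the largest fall in the list at -2.05 (adjusted p = 3.82e-05). For the L-type pore Cacna1c no difference was called, as given above, but its auxiliary subunit Cacnb2 rose (0.50, adjusted p = 0.0167). Potassium channel genes other than Kcnma1 and Kcnmb1 moved both ways. Kcnh2, the ERG channel, rose by 0.89 (adjusted p = 0.00263). Kcnab1, an auxiliary subunit of voltage-gated channels, read 147, 145 and 143 intensity units in SF1 uteri, against 277, 278 and 288 in control uteri, and fell (-0.89, adjusted p = 0.000104). The second Kcnab1 probe set gave -0.26 (adjusted p = 0.192), and the mean of both -0.57. In calcium removal, the store pump gene Atp2a2 rose by 0.42 (adjusted p = 0.0081), and the sodium-calcium exchanger gene Slc8a1 was lower (-0.76, adjusted p = 0.00163).

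Of the structural and regulatory genes in the wider list, Fhl2 rose most. It is a LIM protein that binds integrins and transcription factors. Fhl2 read 816, 844 and 836 intensity units in SF1 uteri, against 348, 372 and 397 in control uteri (1.13, limma adjusted p = 5.19e-05). Sorbs2, an adaptor between actin and membrane, read 3331, 2853 and 2702 intensity units in SF1 uteri, against 1518, 1419.8 and 1246 in control uteri (1.08, adjusted p = 0.00035). Of its other 3 probe sets 2 rose too, the remaining one gave -0.15, and the mean of all 4 was 0.68. Gata6, a transcription factor of smooth muscle, read 807, 728 and 673 intensity units in SF1 uteri, against 356, 265 and 384 in control uteri (1.11, adjusted p = 0.00102). Its other probe sets gave 0.55, which was called, and 0.054, which was not, and the mean of all 3 was 0.57. Arhgap42, which switches off RhoA in smooth muscle, read 594, 524 and 578 intensity units in SF1 uteri, against 1094, 1153 and 1142 in control uteri (-0.98, adjusted p = 0.000113). Its second probe set gave -0.17 (adjusted p = 0.327), and the mean of both -0.58 (adjusted p = 0.00189). For these 4 genes the SF1 and control arrays did not overlap. Pdlim1, an actin-bound PDZ-LIM protein, read 1539, 1572 and 1586 intensity units in SF1 uteri, against 3181, 2834 and 3193 in control uteri and fell (-0.96, adjusted p = 0.000123), but its other 2 probe sets gave 0.21 and 0.12 and the mean of all 3 was not called (adjusted p = 0.0638). Mrtfb, a myocardin-related co-factor of Srf, was lower (-0.40, adjusted p = 0.0079).

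Markers of several other cell types of the uterine wall differed between the groups. None of the 8 defining smooth muscle markers, all of them members, was called. Over all genes 16.5% were called in either direction, so 0 of 8 says little on its own. Summed over these 8 markers, the intensity of an array lay between 31183 and 33547 in SF1 and between 28744 and 31548 in control. Acta2 and Tagln, the brightest of them, weigh most in the sum. The ranges overlapped only in that SF1 replicate 1 lay under control replicate 3. None of the markers of any list was listed at 0. The sums for pericytes and vessel wall lay between 8995 and 9381 in SF1 and between 12516 and 13256 in control. Of these 11 markers, 6 were called lower, among them Notch3 (-0.73) and Pdgfrb (-0.78), and 1 higher, Rgs4 (1.37). Kcnj8 and Abcc9 stand both here and in the wider smooth muscle list, so the called fall of Abcc9 (-0.61) counts in both.

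Of 9 endothelial markers 8 were called lower, and their sum lay between 4038 and 4677 in SF1 and between 6619 and 6865 in control. The endothelial sums of the groups did not overlap. For endometrial stroma, 7 of 11 were called lower, with sums from 44896 to 47128 in SF1 and from 53904 to 56177 in control. Epithelial markers were called higher for 6 of 10 and lower for 1, with sums from 21350.3 to 23493 in SF1 and from 17921 to 18829.9 in control. Macrophage markers were called higher for 5 of 7, with sums from 7526 to 11118 in SF1 and from 4553 to 6300.4 in control. For these lists too, no SF1 array lay within the control range. The part of these cell types in the rise of Kcnma1, Kcnmb1, Oxtr, Gja1, Casq2 and Itga8 or the fall of Pgm5 and Synpo2 was not tested.

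Some members, Casq2 and Ldb3 among them, are also made in striated muscle, whose markers hold none of the members. The striated muscle sums overlapped between groups. Of 14 markers, 1 was called higher and 2 lower, with sums from 1241 to 1398 in SF1 and from 1378 to 1571 in control. These are 7.14% and 14.3%, against 8.37% and 8.11% of all genes. Of the 4 fat markers measured, 1 was called lower, with overlapping sums from 2245 to 9862 in SF1 and from 8828 to 14063 in control.

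**Figure D5:**
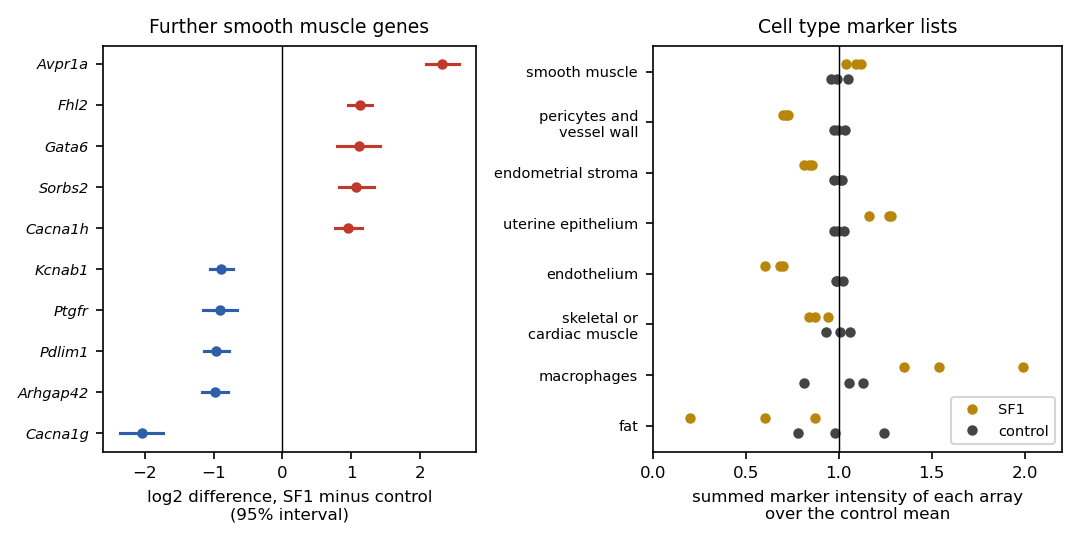
Left, log2 difference (SF1 minus control) with its 95% interval for the 5 highest and 5 lowest called genes of the wider smooth muscle list. Right, summed marker intensity of each array over the control mean for 8 cell type lists, SF1 points above control points. The smooth muscle sums of the 2 groups overlap, while those of pericytes and vessel wall, endothelium and endometrial stroma lie lower in SF1.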

How the data were processed

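Total RNA was labelled with biotin and hybridised to 1-colour Affymetrix arrays (Mouse Genome 430, version 2.0), per the labels' protocols. Each deposited value is the intensity of 1 probe set, linear and not logged, and the authors' background correction, normalization and summarization are not given in the sources used here. Unstated background handling would bear most on the differences of dim genes. Of 45101 probe sets, 64 controls were set aside and 45037 tested. The platform annotation gave 34945 of them 1 gene symbol, 932 several and 9160 none.

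Values were transformed as log2(intensity + 16) and fitted with limma 3.58.1 (lmFit, eBayes) in R 4.3.3, comparing SF1 with control over all tested probe sets. Differences are on that scale and understate those of dim genes. A gene was called at a Benjamini-Hochberg adjusted p under 0.05, and all adjusted p-values are from limma. Intervals are 95% intervals of that fit. Figures were drawn with matplotlib 3.10.9 in Python 3.11.15.

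The members and lists were chosen with earlier results of these data known. Array values are given for called members, defining markers, pairs read by role and the 5 uncalled members nearest to a call, and for up to 5 risen and 5 fallen genes of the wider list. Array values of Synm, Ckb and Myl6, and differences of Cacnb2, Kcnh2, Atp2a2, Slc8a1, Mrtfb, Notch3, Pdgfrb and Rgs4, were added after their values were seen. The AAGGTCA search was also added then. Alternatives were quantile normalization, median centring, pseudocounts of 1 and 64, a filter to the brighter probe sets, a replicate block taken from the titles, eBayes with robust and trend switched on, averaging all probe sets of a gene, and leaving out each array. The labels describe separate pools of 2 uteri but not whether they were processed together, and 3 arrays per group limit the precision.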

Additional observations from a re-analysis of the deposited data

How the results depend on the processing

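The count of members called higher stayed between 4 and 9 under the 14 alternatives, against 6, and that of members called lower between 1 and 4, against 2. The lower count was 1 with the replicate number as a block, which lost Synpo2, and 4 with trend and robust or with averaged probe sets, both of which added Des and Ppp1r12a. Leaving out 1 array gave 1 to 4 members lower and 12 to 17 genes of the wider list lower, against 21. Over all genes, 1025 to 1294 were called higher and 908 to 1118 lower with 1 array left out, and 1139 higher and 932 lower with the block, against 1523 and 1475. Kcnma1, Oxtr, Gja1, Kcnmb1 and Pgm5 stayed called under every alternative. Numbers in the titles did not pair the arrays: deviations of same-numbered arrays correlated at -0.063, -0.10 and -0.18, and no array correlated best with its own number. The block changed no call of a member except those of Synpo2 (adjusted p = 0.0723) and Casq2 (adjusted p = 0.0562). Signs turned only for genes that were not called in any of the 14 alternatives. Quantile normalization gave 0.027 for Cacna1c, -0.016 for Cald1, -0.027 for Myh11 and 0.022 for Smtn. Median centring gave 0.039 for Cacna1c, 0.038 for Smtn and 0.017 for Vcl. The mean of probe sets gave -0.079 for Acta2, -0.11 for Cald1, -0.028 for Ppp1r12b and -0.048 for Tpm1. With 1 array left out, log2 differences ran from -0.10 to 0.036 for Cacna1c, -0.13 to 0.16 for Cnn1, -0.0038 to 0.093 for Myh11, -0.054 to 0.085 for Nr5a1, -0.042 to 0.15 for Ppp1r12b, -0.11 to 0.13 for Smtn, -0.00063 to 0.091 for Tpm1 and -0.069 to 0.014 for Vcl. The cause of these turns was not tested. Casq2 and Ldb3 were too dim for the filter to brighter probe sets.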
